A study of Mus musculus with 8 samples.

Results

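MHC class II presentation was followed through 7 genes in single-nucleus RNA of mouse gastrocnemius, a calf muscle. The genes, listed by symbol, were H2-Aa, H2-Ab1, H2-Eb1, H2-DMa, H2-DMb1, Cd74 and Ciita, 7 of the 32245 symbols in the files. Their unique molecular identifiers (UMIs, tags that let each captured RNA molecule be counted once) were summed in the 4 libraries made with 10x Genomics droplets, per library and per class of nuclei. All 7 genes had UMIs in each of these libraries, 18694 UMIs in all over 47059 retained nuclei.

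The 4 groups were Old (labelled Aging, 20 months), Young (3 months), Running (11 months when treadmill training began, trained for 2 months) and Sedentary (the untrained mice of that running model, for which the methods give the same 11 months as starting age). Ages and the training period come from the study's methods. All samples carried the genotype label WT, the mice were C57BL/6, and the number of mice behind a library is not given in the sources used here. Each group had 1 10x library and 1 library of a second set made with another droplet system, so values from the 10x set compare single libraries and carry no test.

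The 10x libraries held between 10587 and 12991 retained nuclei, with median depths of 2790 UMIs per nucleus in Old, with 3001 in Young, 2805 in Running and 1664 in Sedentary. Pairs of 10x libraries shared between 30 and 46 cell barcodes. Sedentary stood apart in depth and in its makeup, since 20.9% of its nuclei lay in unnamed clusters led by very long genes or by the Gm10800 family, against 1.92% to 7.32% in the others. In the second set, Old stood apart, with 18.0% of its UMIs on genes over 300 kb long and between 12.1% and 12.8% in the other 3 libraries. By marker genes 55.2% of the 10x nuclei were myonuclei.

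MHC class II molecules are pairs of an alpha and a beta chain that show peptides from engulfed or endosomal proteins to CD4+ T cells. The invariant chain, encoded by Cd74, holds the groove closed until the DM heterodimer helps to exchange its remnant for a peptide. Dendritic cells, B cells and macrophages are the usual presenting cells, and in them the coactivator CIITA, which does not bind DNA itself, is recruited to a conserved pair of upstream elements, the X box and the Y box, by the RFX, CREB and NF-Y factors.

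The promoter stretches below are shown because these elements are what the shared control of the family is known for. H2-Aa, H2-Ab1, H2-Eb1, H2-DMa and H2-DMb1 lie in the class II region of chromosome 17 (GRCm38, GENCODE vM21). H2-Ab1 spans 34257689 to 34269419 on the plus strand, H2-Aa 34282744 to 34287823 on the minus strand, and H2-Eb1 34305867 to 34316674 on the plus strand. H2-DMa spans 34119541 to 34139101 and H2-DMb1 34153072 to 34160230, both on the plus strand. The RefSeq promoter table (GRCm38.p6) held 4 of the 7 genes. Each line gives the 120 bases before the start that RefSeq gives the gene, 5′ to 3′ along the gene, with an X-box-like pattern (CNNGNAAC) and a Y-box core (ATTGG) in capitals where both occurred in that order with 24 to 32 letters between them. The GENCODE spans of H2-DMa and H2-DMb1 begin further upstream than their RefSeq starts, so their stretches lie inside those spans, but for the first base of the H2-DMb1 stretch. The patterns and spacing were chosen after the sequences had been seen.
H2-Aa (chr17:34287824-34287943, minus strand): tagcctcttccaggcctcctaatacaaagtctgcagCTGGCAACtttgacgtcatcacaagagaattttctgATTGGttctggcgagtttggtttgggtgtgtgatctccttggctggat
H2-Eb1 (chr17:34305747-34305866, plus strand): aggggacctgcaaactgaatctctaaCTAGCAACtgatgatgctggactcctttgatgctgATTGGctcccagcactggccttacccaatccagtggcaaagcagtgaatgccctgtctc
H2-DMb1 (chr17:34153071-34153190, plus strand): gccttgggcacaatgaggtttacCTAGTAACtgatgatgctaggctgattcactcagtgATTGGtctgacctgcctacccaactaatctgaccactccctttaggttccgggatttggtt
H2-DMa (chr17:34122712-34122831, plus strand): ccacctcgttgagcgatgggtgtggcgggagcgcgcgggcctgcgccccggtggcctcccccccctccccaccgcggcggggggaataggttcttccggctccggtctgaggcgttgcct

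The pair stood in H2-Aa with 28 letters between the patterns, in H2-DMb1 with 28 and in H2-Eb1 with 27. Of the other class II genes in the table, H2-Oa, H2-Ob and H2-Eb2 held it and H2-DMb2 did not. Searched on both strands over 250 upstream bases, the X-like pattern occurred in 33.3% and the Y-box core in 33.8% of all 32851 promoters. The spaced pair occurred along the gene, as printed here, in 55 promoters (0.167%), and on either strand in 0.317%. Cd74 lies on chromosome 18 from 60803848 to 60812652 and Ciita on chromosome 16 from 10480059 to 10528418, both on the plus strand. Ciita overlaps Dexi and H2-Eb1 overlaps Gm20513, each on the opposite strand. Around the RefSeq starts of H2-DMa no such pair was found. That says only that these letters, so spaced, are not in the searched windows.

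H2-Aa, H2-Ab1 and H2-Eb1, which encode class II chains, had their highest levels in the Old 10x library. H2-Aa, the alpha chain of the A molecule, stood at 50.2 CPM (the counts-per-million scale, UMIs scaled to the total of the library or class) in Old (95% exact Poisson interval 48.0 to 52.5), with 25.9 in Young (24.3 to 27.5), 11.4 in Running (10.4 to 12.4) and 6.22 in Sedentary (5.25 to 7.31). H2-Ab1, its beta chain, stood at 33.3, 17.9, 7.03 and 5.44 CPM in the same order. H2-Eb1, which encodes the beta chain of the E molecule, stood at 39.3, 23.8, 9.39 and 3.60 CPM. Whether an E dimer was made in these C57BL/6 mice was not measured. For H2-Aa and H2-Eb1 no interval overlapped another, and the order was Old, Young, Running, Sedentary. For H2-Ab1 the intervals of Running (6.27 to 7.85) and Sedentary (4.54 to 6.48) overlapped. Intervals here and throughout cover counting error only, and in these library sums more nuclei of a class and more RNA per nucleus cannot be told apart.

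**Figure D1:**
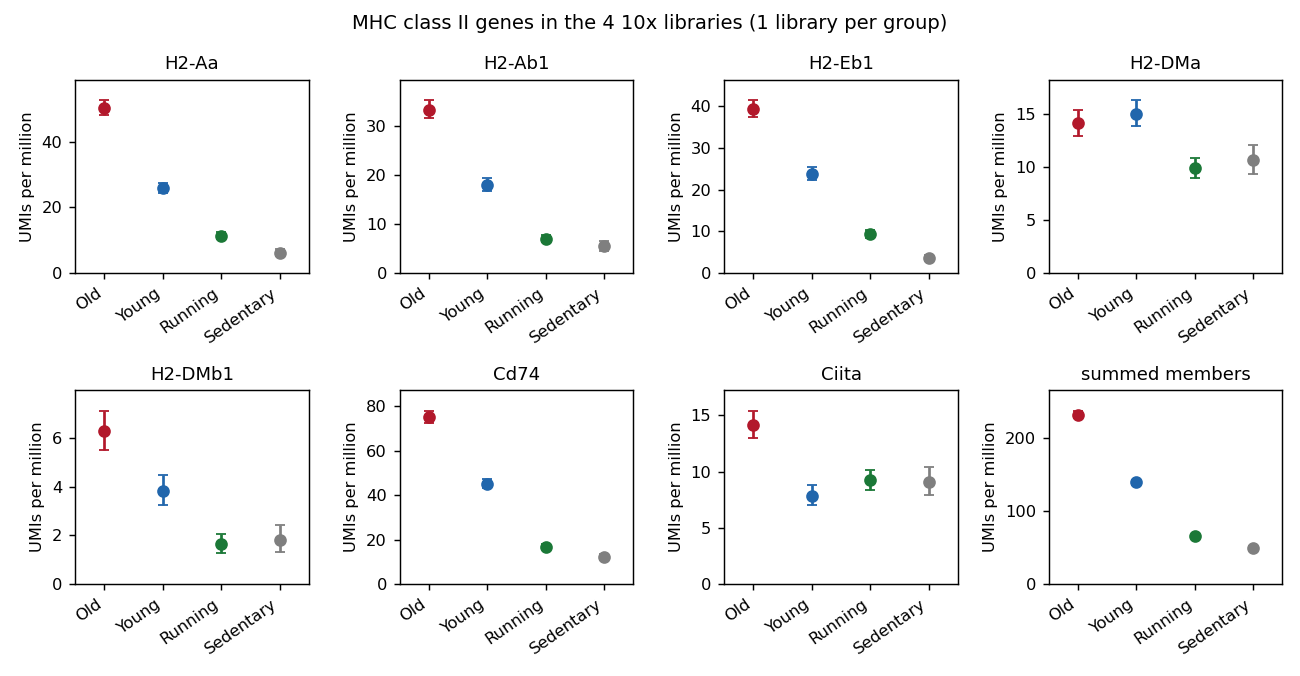
CPM of each class II gene and of their sum in the 4 10x libraries (1 point per library, bars are 95% exact Poisson intervals, axes start at 0). H2-Aa, H2-Ab1, H2-Eb1 and Cd74 descend from Old over Young and Running to Sedentary, and H2-DMa, H2-DMb1 and Ciita do not.

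Cd74, the invariant chain, had 75.1 CPM in Old, with 45.1 in Young, 16.7 in Running and 12.2 in Sedentary. H2-DMb1, the beta chain of DM, had 6.27, 3.83, 1.62 and 1.80, and its Running and Sedentary intervals overlapped. Its neighbour H2-DMb2 is a close paralog, and reads could be split between them. H2-DMa, the alpha chain of DM, did not share the order. It had 14.2 CPM in Old, with 15.1 in Young (13.9 to 16.3), 9.91 in Running (9.01 to 10.9) and 10.7 in Sedentary (9.39 to 12.1). Ciita, the coactivator, had 14.2 in Old and between 7.86 and 9.21 in the other libraries, whose intervals all overlapped one another (7.01 to 8.78 in Young and 8.34 to 10.2 in Running). Summed over the 7 genes, the level was 232 CPM in Old, with 139 in Young, 65.3 in Running and 49.0 in Sedentary.

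Most class II RNA lay in a small group of nuclei. Immune clusters are those that were immune-like in the first clustering, made without the class II genes among the clustering genes. They held 1670 nuclei or 3.55% of all, and 70.0% of the 18694 UMIs (95% exact binomial interval 69.4 to 70.7). Their share was 79.5% for H2-Aa, 79.0% for H2-Ab1, 81.9% for H2-Eb1, 77.3% for Cd74 and 77.5% for H2-DMb1. It was 47.7% for Ciita and 13.4% for H2-DMa. Of the 1670 nuclei, 952 lay in clusters named macrophage-, dendritic-, B-, T or NK-like, and these held 38.2% of the UMIs. Another 631 lay in unnamed immune clusters. A cluster led by the Gm10800 family held 289 of them. Clusters with a mean doublet score above 0.15 held 155, 57 and 17, and the 155 were closest to myonuclei by markers. By library the share in all immune clusters was 71.4% in Old, with 77.5% in Young, 65.6% in Running and 34.3% in Sedentary.

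Dendritic-like nuclei had the highest level. Their 85 nuclei stood at 11271 summed CPM (10848 to 11707), and 98.8% had at least 1 class II UMI. B-like nuclei (102) stood at 3761 (3477 to 4062) and macrophage-like nuclei (586) at 2585 (2504 to 2669), and these 3 classes did not overlap in their intervals. Myonuclei (25996) stood at 27.3 (26.2 to 28.4). Relative to myonuclei, Cd74 was 678-fold higher in dendritic-like, 296-fold in B-like and 179-fold in macrophage-like nuclei. H2-Aa was 772-fold, 234-fold and 193-fold higher in the same classes, and H2-Eb1 1002-fold, 302-fold and 202-fold. Between B-like and macrophage-like nuclei the H2-Ab1 intervals overlapped (295 to 486 against 322 to 383 CPM).

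**Figure D2:**
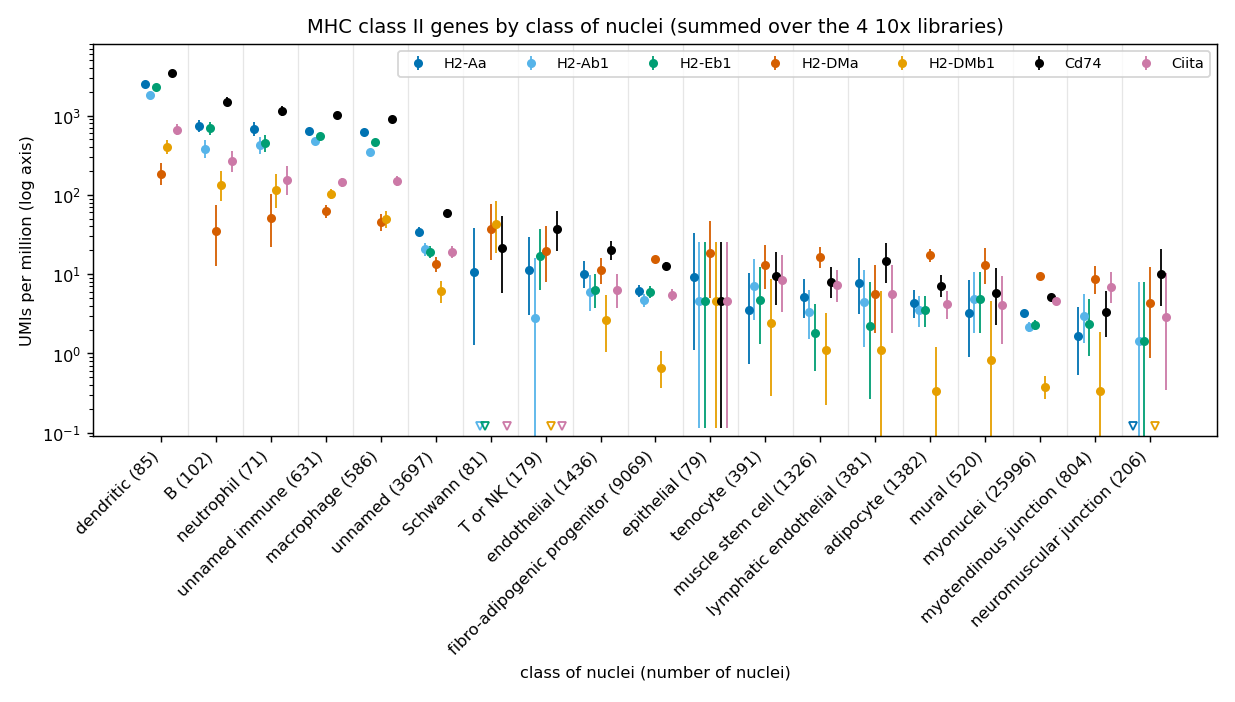
CPM of each gene (log axis) in each class of nuclei, 10x libraries summed, with the number of nuclei in brackets and 95% exact Poisson intervals as bars, cut at the lower edge of the axis. Open triangles mark genes with no UMI in a class. H2-Aa, H2-Ab1, H2-Eb1 and Cd74 lie higher in dendritic-, B- and macrophage-like nuclei than in any class outside the immune clusters, and H2-DMa and H2-DMb1 in Schwann-like nuclei lie near their macrophage-like levels.

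Within the dendritic-like nuclei, a cluster with Cd209a and Flt3 among its leading genes (41 nuclei) stood at 14540 summed CPM and a cluster led by Clec9a (44 nuclei) at 8120. Cd209a marks monocyte-related dendritic cells, and Clec9a, a receptor for dead-cell actin, marks cross-presenting ones. Cd74 differed between them, at 4838 (4447 to 5255) and 2104 CPM (1854 to 2380). Ciita did not separate them, at 705 (560 to 875) and 630 (496 to 788), nor did H2-DMb1, at 387 (282 to 517) and 422 (315 to 556).

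Another high level came from an immune cluster left unnamed, because Fn1, a listed monocyte marker, was among its leading genes while all 10 of its macrophage markers were raised too. This Lyz1- and Fn1-led cluster (113 nuclei) stood at 8841 summed CPM (8545 to 9145), and 99.1% of its nuclei had a class II UMI. Its interval lay above those of both macrophage-like clusters, which stood at 2616 (the cluster with Lyve1 and Timd4 among its leading genes, which mark resident macrophages) and 2523. A neutrophil-like cluster (71 nuclei) stood at 3010, with class II UMIs in 40.8% of its nuclei, fewer than in any macrophage-, B- or dendritic-like class. Its leading genes mixed the granule genes S100a8, S100a9, Ngp and Ltf with Adgre4 and the proliferation gene Top2a, and at resolution 2.0 there were instead a neutrophil-like cluster of 31 nuclei led by S100a9 and a monocyte-like cluster of 41 with Adgre4 among its leading genes.

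T or NK-like nuclei come from cells that in mice do not usually present on class II, and set a level to compare with. Class II UMIs were found in 17 of these 179 nuclei, or 9.497% (5.63 to 14.8) and in 8.97% of myonuclei (8.62 to 9.32), at median depths of 1505 and 3184 UMIs per nucleus. Endothelial nuclei were at 8.98%, muscle stem cell nuclei at 7.84%, fibro-adipogenic progenitors at 11.4% and adipocytes at 12.8%, all within the interval of the T or NK-like nuclei, which is wide at that number. The T or NK-like level itself, 87.8 summed CPM, was 3.22-fold that of myonuclei (2.18 to 4.58), and the source of the UMIs in either class was not tested. In the T or NK-like class 1 Young nucleus held 15 of the UMIs, and no other nucleus held more than 1. That level thus depends strongly on 1 nucleus, which its interval does not reflect. Schwann-like nuclei (81) were at 19.8% (11.7 to 30.1), which overlapped the T or NK-like share. In them H2-DMb1 had 8 UMIs, 7 of them in Old, or 42.6 CPM, 112-fold over myonuclei (45.01 to 245), while T or NK-like nuclei had no H2-DMb1 UMI and Schwann-like nuclei none of H2-Ab1, H2-Eb1 or Ciita.

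The genes were found together in the same nuclei. In immune clusters, 69.5% of the 830 nuclei with a Cd74 UMI also had H2-Aa, against 12.3% of the 840 without. For Ciita the shares were 38.1% and 7.62%, and for H2-DMa 17.8% and 4.05%. Outside the immune clusters H2-DMa was found in 5.44% of nuclei with Cd74 (4.10 to 7.06) and in 3.28% of those without (3.12 to 3.45). At least 3 of the 7 genes were found in 700 nuclei, of which 272 were macrophage-like, 236 lay in unnamed immune clusters, 74 were dendritic-like and 57 B-like, and 8 were myonuclei. Both chains of the A molecule, H2-Eb1 and Cd74 were all seen in 70.6% of dendritic-like nuclei and in 24.4% of macrophage-like ones.

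H2-DMa stood apart in its distribution. Of its 1842 UMIs, 49.4% lay in myonuclei, against 8.36% of those of Cd74. Myonuclei were 25996 of the 47059 nuclei, so H2-DMa was not concentrated in them. Its level was 9.60 CPM in myonuclei, 15.4 in fibro-adipogenic progenitors, 17.3 in adipocytes, 45.1 in macrophage-like and 186 in dendritic-like nuclei. The fold over myonuclei was 4.70 (3.61 to 6.04) in macrophage-like nuclei, where Cd74 gave 179 (161 to 199). In dendritic-like nuclei it was 19.3 (14.0 to 26.2). By annotation H2-DMa overlaps Brd2 on the opposite strand and CR974462.3 on its own strand, and the sources used here do not state how overlapping genes were counted.

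The counts relative to Cd74 show the same split among the genes. H2-Aa gave 0.629 UMIs per Cd74 UMI in myonuclei (0.543 to 0.727) and 0.651 in immune clusters (0.621 to 0.682). For H2-Ab1 the values were 0.427 and 0.436, for H2-DMb1 0.0747 and 0.0892, and for H2-Eb1 0.452 (0.384 to 0.532) and 0.550 (0.523 to 0.578), with overlapping intervals in each case. By contrast H2-DMa gave 1.89 in myonuclei and 0.0553 in immune clusters, and Ciita 0.894 and 0.159. The myonuclear ratio of H2-DMa was 0.720 in Old, with 3.29 in Young, 3.51 in Running and 4.0 in Sedentary, and that of Ciita was 0.366, 0.742, 2.61 and 2.08 in the same order, so the pooled values cover unlike libraries. So the intervals of H2-Aa, H2-Ab1, H2-Eb1 and H2-DMb1 overlapped between myonuclei and immune clusters, while those of H2-DMa and Ciita did not. Overlap does not show equal ratios, and for H2-Eb1 it was narrow. Over all nuclei outside the immune clusters H2-Eb1 gave 0.411 (0.371 to 0.455), below the interval of the immune clusters. Whether free RNA from immune cells accounts for the myonuclear UMIs of H2-Aa, H2-Ab1, H2-Eb1 and H2-DMb1 was not tested.

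**Figure D3:**
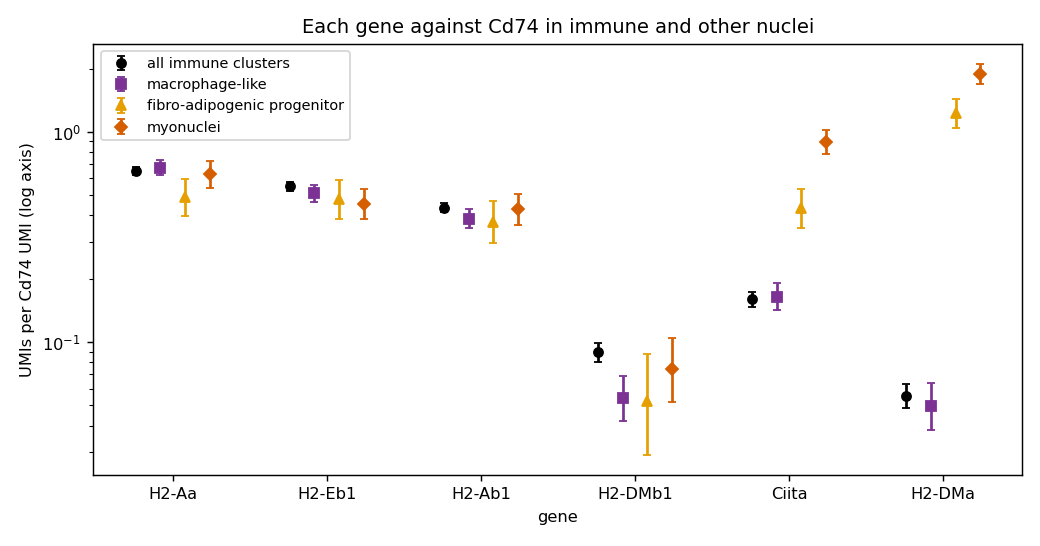
UMIs of each gene per Cd74 UMI (log axis) in all immune clusters, macrophage-like nuclei, fibro-adipogenic progenitors and myonuclei, 10x libraries summed, with 95% exact conditional intervals. Myonuclear intervals overlap those of the immune clusters for H2-Aa, H2-Eb1, H2-Ab1 and H2-DMb1, and lie apart for Ciita and H2-DMa. H2-Aa in fibro-adipogenic progenitors (0.488) and H2-DMb1 in macrophage-like nuclei (0.0541) lie below the intervals of the immune clusters.

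Old and Young were compared to ask how class II RNA differs with age. In the 10x set the summed level was 1.67-fold higher in Old (95% exact conditional interval 1.61 to 1.72). H2-Aa was 1.94-fold higher (1.80 to 2.09), H2-Ab1 1.86-fold, Ciita 1.80-fold, Cd74 1.66-fold, H2-Eb1 1.65-fold and H2-DMb1 1.64-fold. H2-DMa had a ratio of 0.940 (0.836 to 1.06). Thus 6 of the 7 genes were at least 1.5-fold higher and none at least 1.5-fold lower. Among all 17624 genes with 50 or more UMIs in the pair, 26.9% were at least 1.5-fold higher and 5.84% at least 1.5-fold lower in Old, and the median ratio was 1.18.

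Immune clusters held 6.39% of Old nuclei (5.96 to 6.85) and 3.56% of Young nuclei (3.23 to 3.91). Both shares include the unnamed immune clusters, with those of high doublet score among them. Inside them the summed level was lower in Old, at 3177 against 3871 CPM (ratio 0.821, 0.789 to 0.853). In macrophage-like nuclei (262 in Old, 164 in Young) it was 2132 (2025 to 2243) against 3639 (3447 to 3840), a ratio of 0.586 (0.544 to 0.631). H2-Ab1 had the lowest ratio there at 0.512 (0.417 to 0.629), followed by H2-Eb1 at 0.556 and Cd74 at 0.562, while the interval of H2-DMa held 1 (0.5005 to 1.88). Both macrophage-like clusters had the lower level in Old, 2116 against 3576 in the Lyve1 and Timd4 cluster and 2163 against 3775 in the other. The Lyz1- and Fn1-led cluster stood at 9030 in Old (51 nuclei) and 10779 in Young (35 nuclei), and adding it to the macrophage-like nuclei gave a ratio of 0.678. Thinned to 500 UMIs per nucleus, 45.04% of Old and 62.8% of Young macrophage-like nuclei had a class II UMI, against 73.3% and 80.5% unthinned.

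Unnamed immune clusters together stood at 2988 in Old (262 nuclei) against 4766 in Young (106 nuclei), a ratio of 0.627 (0.591 to 0.666). They mix unlike nuclei, and the high Lyz1- and Fn1-led cluster made up a larger part of them in Young. That ratio thus holds both makeup and level, which were not told apart. B-like nuclei were higher in Old and stood at 5854 (5237 to 6523) against 2486 (2191 to 2809), a ratio of 2.35 (1.99 to 2.78) from 32 and 56 nuclei. Dendritic-like nuclei (50 and 17) stood at 12834 (12252 to 13437) and 12713 (11772 to 13708), which overlapped. In myonuclei the sum was 45.7 in Old and 24.3 in Young, 1.88-fold higher, with Cd74 at 12.5 against 3.69 (3.40-fold) and H2-DMa lower, at 9.03 against 12.1 (ratio 0.745). Fibro-adipogenic progenitors stood at 80.0 and 36.0. At a fixed depth of 500 UMIs, 2.82% of Old and 1.42% of Young myonuclei had a class II UMI, against 16.5% and 8.05% unthinned. Old was also the library with most immune nuclei, and the part of their free RNA in the myonuclear values was not tested.

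**Figure D4:**
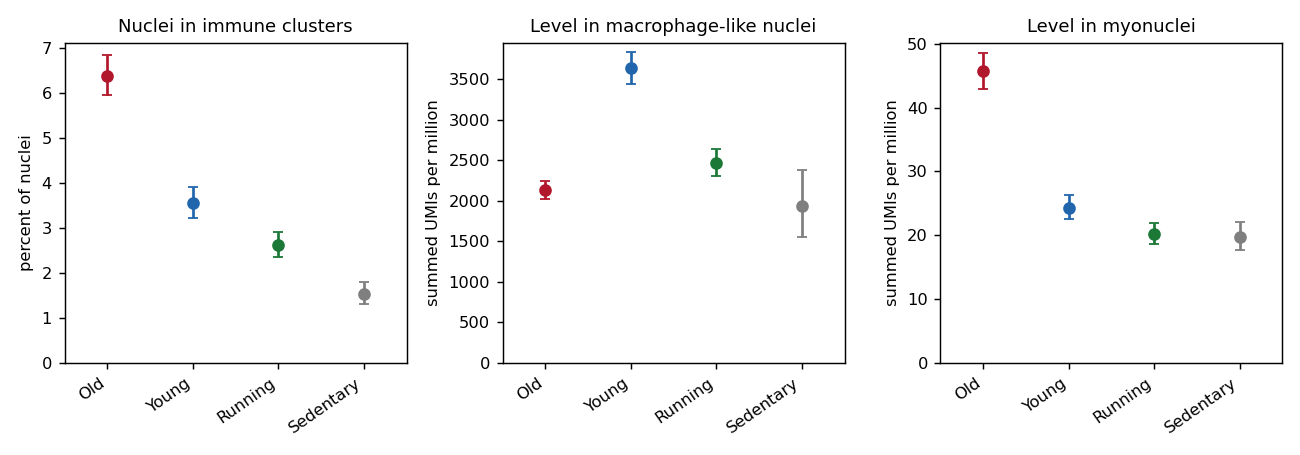
Share of nuclei in immune clusters (percent, 95% exact binomial intervals) and summed class II CPM in macrophage-like nuclei and in myonuclei (95% exact Poisson intervals) in each 10x library, 1 point per library. Old has the largest share of immune nuclei and the highest myonuclear level, and Young the highest level in macrophage-like nuclei.

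The shares of all classes and the UMIs per nucleus of all classes were then exchanged between Old and Young, which does not single out the immune classes. Per 1000 nuclei, Old held 780 class II UMIs and Young 470. With the class shares of Old and the UMIs per nucleus of Young, the sum would be 847. With the shares of Young and the UMIs per nucleus of Old, it would be 549. For H2-Aa the same exchange gave 173 and 116, around 168 in Old and 87.2 in Young. For H2-DMa it gave 58.3 and 43.1, around 47.5 and 50.7.

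Running and Sedentary were compared to ask how class II RNA differs after treadmill training. The summed level was 1.33-fold higher in Running (1.24 to 1.43). H2-Eb1 was 2.61-fold higher (2.06 to 3.34) and H2-Aa 1.83-fold (1.52 to 2.21). Cd74 was 1.37-fold higher (1.20 to 1.58) and H2-Ab1 1.29-fold (1.05 to 1.60). The intervals of H2-DMa (0.793 to 1.09), H2-DMb1 (0.607 to 1.35) and Ciita (0.857 to 1.20) held 1. Hence 2 of the 7 genes were at least 1.5-fold higher and none at least 1.5-fold lower, beside 18.3% of all 18524 genes higher and 23.3% lower. The ratio of the sums was 2.07 per 1000 nuclei and 1.14 after thinning to 500 UMIs per nucleus, and Sedentary was the shallowest 10x library.

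Immune clusters held 2.62% of Running nuclei (2.35 to 2.91) and 1.54% of Sedentary nuclei (1.31 to 1.79). The level inside them was 2242 and 1590 CPM, a ratio of 1.41 (1.26 to 1.58). In macrophage-like nuclei it was 2473 in Running (125 nuclei) and 1935 in Sedentary (35 nuclei, 91 UMIs), a ratio of 1.28 (1.03 to 1.60). By gene, the lower bound passed 1 only for H2-Eb1 (2.15, 1.10 to 4.81) and Ciita (3.10, 1.02 to 15.4), the latter from 3 UMIs in Sedentary. After thinning the macrophage-like ratio was 1.09. Different clusters held most of the macrophage-like nuclei: the Lyve1 and Timd4 cluster had 79 in Running and 2 in Sedentary. In myonuclei the sums did not separate, at 20.2 and 19.7 CPM (ratio 1.02, 0.893 to 1.18). Fibro-adipogenic progenitors gave 0.928 (0.664 to 1.32). Over all nuclei outside the immune clusters, unnamed clusters included, the level was lower in Running, at 22.9 CPM against 32.5 in Sedentary. The few dendritic-like nuclei, 14 in Running and 4 in Sedentary, stood at 4190 (3562 to 4897) and 3623 (2028 to 5976), below the intervals of Old and Young.

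**Figure D5:**
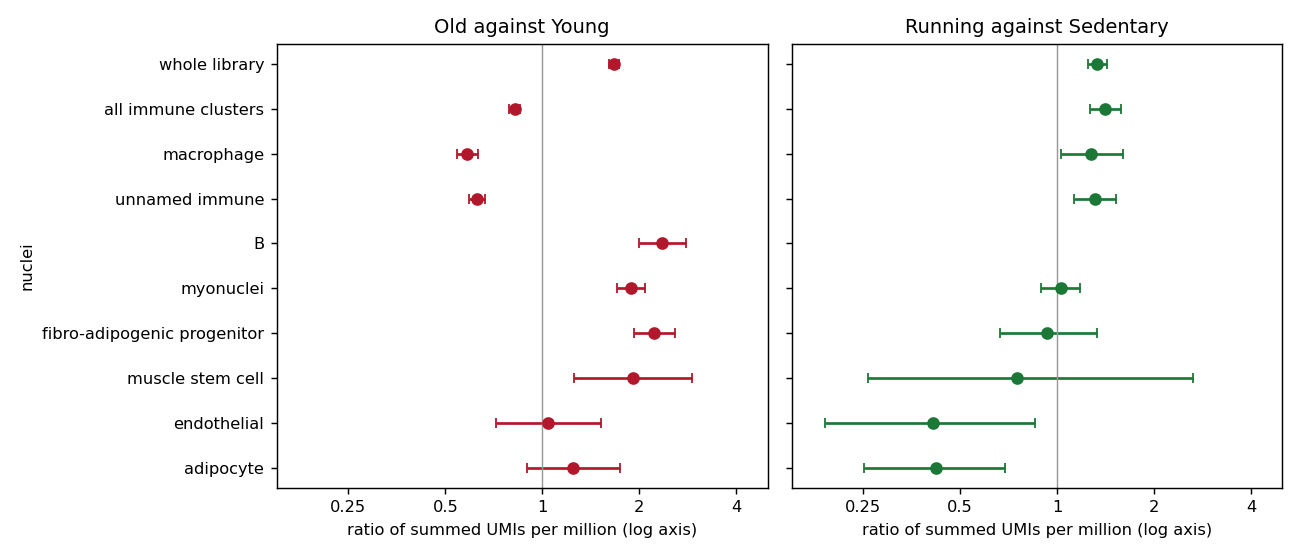
Ratio of summed class II CPM (log axis) between 10x libraries, for the whole library and within classes of nuclei with at least 20 nuclei in both, with 95% exact conditional intervals. Old against Young lies above 1 for the whole library and for myonuclei, and below 1 for immune clusters and macrophage-like nuclei. Running against Sedentary overlaps 1 in myonuclei.

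A pair of unnamed clusters outside the immune ones also held class II RNA. The cluster led by the Gm10800 family (1540 nuclei, 958 of them Sedentary) stood at 338 summed CPM, at 894 in its Old nuclei and 137 in its Sedentary nuclei. These levels came from few nuclei, since 13.3% of the cluster had a class II UMI. Among its 206 Old nuclei, 24 held all 208 Cd74 UMIs. The cluster led by very long genes such as Chl1 and Cntn5 (2157 nuclei) stood at 55.4. With 20.9% of Sedentary nuclei in these clusters, the class values of Sedentary rest on fewer named nuclei than those of the other libraries.

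Over all 8 libraries, a fit with the library set as a term gave the only replicated test. The second set was shallow in class II RNA, with 221 summed UMIs in Old, against 113 in Young, 103 in Running and 63 in Sedentary, or 43.4, 12.4, 14.1 and 13.2 CPM. Ciita had 15.1 CPM in the second-set Old library (11.9 to 18.9) and at most 2.42 in the other 3. H2-DMa lay between 4.07 CPM in Young (2.87 to 5.61) and 6.48 in Old (4.46 to 9.10), with overlapping intervals.

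No class II gene was called in either comparison by edgeR's quasi-likelihood test (0 of 7 at an adjusted p below 0.05). Of all 20324 genes tested, 0.0% were called in each comparison. At an unadjusted p below that level edgeR had 557 genes in the age comparison and 98 in the training comparison, with no class II gene among them. DESeq2 also called 0 genes, with 1174 and 392 at an unadjusted p below it, 1 of them a class II gene (Ciita in the age comparison, DESeq2 unadjusted p = 0.0494). Scaled by library totals alone, edgeR had 2, H2-Aa and Ciita, at an unadjusted p below that level in the age comparison. Ciita stood 1.48 higher on the log2 scale in Old than in Young (SE 0.69, edgeR adjusted p = 0.693), and 0.40 higher without the second-set Old library. H2-Aa stood 1.04 higher (SE 0.53) and Cd74 0.79 higher (SE 0.54), with the same adjusted p, and the adjusted p of the 7 genes lay between 0.1004 and 1 over all alternatives. H2-Ab1, H2-Eb1 and H2-DMb1 lay between 0.73 and 0.98, and H2-DMa at -0.15, which was 0.24 when scaled by library totals alone and 0.02 without the second-set Old library. For Running against Sedentary, Cd74 had 1.10 (SE 0.62), H2-Aa 0.94 (SE 0.63) and H2-DMb1 -0.49 (SE 0.87), all with an edgeR adjusted p of 1. Libraries of a group came from different droplet systems, and the library set was a term. The test thus measures how far group differences disagree between the sets, which may be technical.

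The other genes of the pathway were followed from lists chosen with earlier results known. None was called in the 8-library fit, and their 10x ratios follow as values. Of 8 genes of class II antigen processing with enough UMIs, 4 were at least 1.5-fold higher in Old than in Young and 0 lower (list median 1.42, beside 1.18 for all genes, of which 26.9% were higher). Lgmn, an asparaginyl endopeptidase of endosomes, had a ratio of 2.01, March1, a ubiquitin ligase that removes class II molecules from the surface, 1.78, and Ctss, the cathepsin that trims the invariant chain, 1.77. Between Running and Sedentary 3 of 8 were higher and 2 lower, beside 18.3% and 23.3% of all genes, with Ctsd at 2.92, Ctsl at 1.94 and March1 at 0.368. Ctsd and Ctsl encode lysosomal cathepsins.

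Among the promoter-binding factors of the enhanceosome, 1 of 7 passed 1.5-fold in each comparison (list medians 1.09 and 1.15), which is below the 26.9% of all genes higher in Old and near the 18.3% higher in Running. It was Rfxap, a subunit of RFX, with 1.52 in the age comparison and 1.68 in the training comparison. Rfxank and Rfx5, the other RFX subunits, had ratios of 1.49 and 1.40 in the age comparison, and Nfyb, a subunit of NF-Y, and Rfxank 1.495 and 1.30 in the training comparison. Across classes Rfx5 was level, at 10.8 CPM in myonuclei, 10.3 in macrophage-like and 12.7 in dendritic-like nuclei (3 UMIs), where Ciita went from 4.55 to 150 and 666.

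Of 9 genes that induce Ciita, 3 were higher in Old (list median 0.975, below the 1.18 of all genes, of which 26.9% were higher): Spi1, the myeloid factor PU.1, at 2.08, Irf1 at 1.64 and the interferon-gamma receptor gene Ifngr1 at 1.63. Ifng itself had 2 UMIs in each of both libraries. Between Running and Sedentary 3 of 9 were higher (list median 1.17, beside 18.3% of all genes), Irf8 at 1.88, Ifngr1 at 1.82 and Irf4 at 1.67. Of 6 genes of costimulatory or inhibitory surface proteins, 3 were higher in Old, Cd86 at 2.53, Pdcd1lg2 at 1.99 and Cd80 at 1.88. Between Running and Sedentary 2 were higher, Icosl at 2.36 and Cd86 at 1.76, and 1 was lower, Pdcd1lg2 at 0.369. The list medians were 1.52 and 1.23, and 6 genes are too few to set against the shares of all genes, 26.9% and 18.3% higher.

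The other class II genes were scarce. H2-DMb2 had 38 UMIs in Old and 17 in Young, a ratio of 2.26 (1.25 to 4.28). H2-Ob, the beta chain of DO, which restrains DM in B cells, had 67 and 60 (1.13), and 34 and 26 in Running and Sedentary (0.687, 0.400 to 1.19). H2-Ob stood at 324 CPM in B-like, 131 in dendritic-like and 4.10 in macrophage-like nuclei. Of 11 genes of class I presentation, the parallel route to CD8+ T cells, 3 were higher in Old, H2-D1 at 1.84, H2-K1 at 1.79 and Tap2 at 1.53 (list median 1.26), a share near the 26.9% of all genes. Between Running and Sedentary Psmb8, Psmb10 and Psmb9, subunits of the immunoproteasome, had ratios of 3.62, 1.76 and 1.72, again 3 of 11 (list median 1.28), beside 18.3% of all genes.

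Over 12 classes in 4 libraries (48 sums, sharing libraries, depth and the clustering), the genes most like the summed class II level were Cd74 (Pearson r = 0.963) and H2-Aa (0.962), followed by C1qb (0.954), Pirb (0.953), Tyrobp (0.951), Fcrls (0.951), Ctss (0.951), Mir142hg (0.9504), Lyz2 (0.9497) and C5ar1 (0.9496) among 15877 genes. Cd74 and H2-Aa are part of that sum. Only classes with at least 20 nuclei in each library entered, so the immune ones were macrophage-like and unnamed immune nuclei. Dendritic-, B- and T or NK-like nuclei were left out, and the order of genes describes only the classes that entered. The values describe these sums of log2(CPM + 1) and carry no test. Among pairs of class II genes r was between 0.795 and 0.940 without H2-DMa, and between 0.634 and 0.7002 in the pairs with H2-DMa.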

How the data were processed

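Each library came as a filtered matrix of unnormalised UMI counts, as the authors deposited it. The submitters' processing notes name Cell Ranger 6.1.2, Seurat 4.1.1 and mm10. Whether intronic reads were counted, and the counting of the second set, are not given in the sources used here. The study's filters (over 200 genes, below 6000 genes, mitochondrial share below 6%) left 47059 nuclei in the 10x set. Doublets stayed in. The 10x nuclei were clustered together (scanpy 1.11.5, leidenalg 0.10.2 in Python 3.11.15, 2000 variable genes, 30 principal components, 20 neighbours, resolution 1.0) without 11 class II genes, and immune nuclei were clustered again.

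Clusters were named from 21 marker lists, each name meaning like that class. A marker counted when its CPM was at least 20 and at least 1 log2 unit above the median cluster, and 3 were needed. Clusters led by genes of another class, by the Gm10800 family or by genes whose median length passed 300 kb, or with a mean doublet score above 0.15, stayed unnamed. These limits were chosen with the clusters in view. The members and lists were chosen with earlier results of these data known.

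Counts were summed per library and class. Genes needed 50 UMIs over a pair of libraries for a ratio. Intervals are 95% exact (Poisson, binomial or conditional binomial). After removing genes of the mitochondrial genome and of ribosomal proteins, all 8 libraries were fitted in edgeR 4.0.16 under R 4.3.3 (its quasi-likelihood test, TMM scaling, Benjamini-Hochberg adjustment, threshold 0.05) with group and library set as terms. DESeq2 1.42.0 was an alternative. The edgeR fit was tried on counts simulated with large changes and no difference between library sets. That does not measure its power in these data. All 7 class II genes were named, up to 3 genes of each other list with the largest 10x ratio in either direction, and the 10 genes of at least 200 UMIs most like the class II sum. Alternatives were other scalings and filters, other resolutions, the class II genes kept in the clustering, thinning, doublet removal and each library left out.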

Additional observations from a re-analysis of the deposited data

How the results depend on the processing

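The summed ratio of Old to Young in the 10x set was 1.725 with every deposited barcode and 1.75 without H2-DMa and Ciita. In macrophage-like nuclei it was 0.698 per 1000 nuclei and 0.678 with the Lyz1- and Fn1-led cluster. The summed ratio of Running to Sedentary was 1.14 after thinning, 2.07 per 1000 nuclei and 1.58 without H2-DMa and Ciita, and in macrophage-like nuclei 2.66 per 1000 nuclei. The share of class II UMIs in named immune classes (38.2%) was 28.8% at resolution 0.5, 43.6% at resolution 2.0, 40.7% after thinning, 41.4% without the highest doublet scores, 42.6% with the class II genes kept in the clustering, 70.0% with every immune cluster and 42.9% without H2-DMa and Ciita. The alternatives without H2-DMa and Ciita, with the Lyz1- and Fn1-led cluster and with every immune cluster were chosen after seeing the data. The cause of these shifts was not tested.

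In the 8-library fit 0 of the 7 genes were called in either comparison under any alternative, each library left out included. Scaling by library totals alone moved the median of all genes for Old against Young from 0.19 to 0.61 on the log2 scale and that of H2-DMa to 0.24. With only the 4 libraries of the comparison H2-DMa stood at 0.031 for Running against Sedentary. Fits of only those 4 libraries called 4 genes in the age comparison and 49 higher and 32 lower in the training comparison, and leaving out the second-set Sedentary library called 14 higher and 409 lower there. With each library left out in turn, the log2 difference between Old and Young ranged from -0.054 to 1.58 for H2-Ab1, -0.58 to 0.40 for H2-DMa, 0.27 (without the second-set Young library) to 1.58 (without the 10x Young library) for Cd74, 0.59 to 1.81 for H2-Aa, 0.40 to 2.23 for Ciita, 0.33 to 1.98 for H2-DMb1 and 0.37 to 1.27 for H2-Eb1. Between Running and Sedentary it ranged from -0.62 to 0.66 for Ciita, -0.40 to 1.10 for H2-Ab1, -0.44 to 0.38 for H2-DMa, -1.18 to 0.17 for H2-DMb1, -1.57 to 1.29 for H2-Eb1, 0.37 (without the second-set Running library) to 1.90 (without the 10x Running library) for Cd74 and 0.23 to 1.30 for H2-Aa. The library set is a term of that fit, and without it 0 of the 7 genes were called too. The labels carry no replicate numbers that would pair libraries in any other way. With 1 10x library per group, and at most 221 class II UMIs in a second-set library, depth limits the gene values there.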
